A study of Mus musculus with 9 samples.

Results

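The 36 genes described here encode the enzymes and regulators with which a cell makes cholesterol and fatty acids, measured by RNA-seq in mouse embryonic stem (ES) cells. They were taken by gene symbol from a list of such genes, which was drawn up with earlier results of these data known, and all 36 were found among the 40213 symbols of the count tables. The list holds 18 enzymes of sterol synthesis, 5 genes of the SREBP machinery, 8 enzymes of fatty acid synthesis and 5 LXR targets and sterol transport genes. Comparisons were made between 3 groups of 3 libraries. The EWS-OCT4 libraries came from a stable Niwa line labelled for a fusion of EWS, an RNA-binding protein, with the pluripotency factor OCT4, and the OCT4 libraries from a stable Niwa line labelled for unfused OCT4. Both stable lines were given doxycycline at 1 µg/ml to lower their own OCT4. The J1 libraries came from the J1 ES cell line, which the study used as its control, and the labels mention doxycycline for the stable lines only. All cells grew in ES medium with LIF, a cytokine that maintains self-renewal. The labels describe 1 line per construct and triplicate experiments, and do not say whether the 3 libraries of a group came from separate cultures or clones, so that p-values measure the spread between libraries, which may be technical. The labels give neither the parental ES line nor the promoter of the stable lines. In a comparison with J1, the background of the line and the introduced protein therefore cannot be told apart. Between the stable lines, with 1 line per construct, differences of line and of construct cannot be told apart either.

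Cholesterol synthesis runs from acetyl-CoA through mevalonate and squalene to lanosterol, whose ring system is then trimmed to cholesterol. Its genes are switched on by SREBP transcription factors, which are carried by SCAP out of the endoplasmic reticulum when sterols are scarce and are held there by INSIG proteins when sterols are plentiful. SREBP1 also drives fatty acid synthesis and desaturation, while LXR receptors respond to oxidised sterols by raising genes of cholesterol export and SREBP1 itself. Proliferating cells such as ES cells need both pathways to build membranes.

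Library totals ran from 21149358 to 24786305 counts, and 16562 genes, all 36 of the list among them, passed the filter on low counts. Levels are given as CPM, counts normalised to sequencing depth with library sizes scaled by the trimmed mean of M values (TMM). Pou5f1, which encodes OCT4, averaged 26.8 ± 2.12 CPM in EWS-OCT4, 165 ± 2.61 CPM in OCT4 and 569 ± 61.8 CPM in J1 libraries (SD, n = 3 each), and the counts do not separate the cell's own transcript from an introduced one. The 8 ES cell markers summed to 3289 to 3398 CPM in EWS-OCT4, 2946 to 3047 CPM in OCT4 and 3862 to 4291 CPM in J1 libraries, so markers of the labelled cell type were abundant in each group. The 12 trophectoderm markers summed to 260.2 to 274 CPM in EWS-OCT4, 561 to 601 CPM in OCT4 and 157 to 189.8 CPM in J1 libraries, with 7 lower and 2 higher in EWS-OCT4 than in OCT4, 7 higher and 2 lower in EWS-OCT4 than in J1 and 9 higher and 1 lower in OCT4 than in J1. The 12 primitive endoderm markers summed to 327 to 339 CPM in EWS-OCT4, 401 to 438 CPM in OCT4 and 243 to 255 CPM in J1 libraries, with Sox17 near 0 at means of 0.0605, 0.134 and 0.677 CPM in those groups. Of 11 tested primitive endoderm markers, 6 were lower and 2 higher in EWS-OCT4 than in OCT4, 8 lower and 2 higher in EWS-OCT4 than in J1, and 5 lower and 3 higher in OCT4 than in J1. Their sum in OCT4 libraries was mostly Col4a1, a collagen gene, which averaged 25.6 ± 1.46 CPM in EWS-OCT4, 313 ± 19.3 CPM in OCT4 and 72.5 ± 0.174 CPM in J1 libraries. In EWS-OCT4 libraries it was mostly Lama1, which had the reverse order. Lama1 averaged 294 ± 4.5 CPM in EWS-OCT4, 75.7 ± 4.2 CPM in OCT4 and 129 ± 2.33 CPM in J1 libraries. The 8 fibroblast markers summed to 1583 to 1627 CPM in EWS-OCT4, 1833 to 1933 CPM in OCT4 and 1543 to 1805 CPM in J1 libraries. Most of this was Fn1, at means of 1580, 1836 and 1615 CPM in those groups. Thy1 averaged 21.1, 28.6 and 44.9 CPM and Col1a1 2.81, 5.91 and 31.2 CPM, while Dcn and Lum averaged at most 0.0321 CPM in any group. Of 5 tested fibroblast markers, 4 were lower and none higher in EWS-OCT4 than in OCT4. Against J1, 3 were lower and 1 higher in EWS-OCT4, and 2 lower and 2 higher in OCT4. A set of 7 two-cell-like markers summed to 121 to 138 CPM in EWS-OCT4, 126 to 143 CPM in OCT4 and 19.7 to 23.4 CPM in J1 libraries. The summed trophectoderm and primitive endoderm levels were thus both highest in the OCT4 libraries, the latter through Col4a1. Insig1, Scd1, Fads1 and Fads2 below were also highest there. Single markers of both lists went either way. The part of these markers in the results was not tested. In bulk RNA, fewer cells of a type and less RNA per cell cannot be told apart.

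Together the 36 genes took 0.225% to 0.232% of all counts in EWS-OCT4 libraries, 0.318% to 0.332% in OCT4 libraries and 0.335% to 0.361% in J1 libraries. The share in the EWS-OCT4 libraries lay below that in each of the other 6 libraries, while the ranges of OCT4 and J1 lay close together. A gene was called at an adjusted p under 0.05, from the quasi-likelihood test of edgeR with p-values adjusted by Benjamini-Hochberg over all 16562 genes. In EWS-OCT4 against OCT4, 25 of the 36 genes were lower and 6 higher, where 34.6% of all tested genes were lower and 31.9% higher. In EWS-OCT4 against J1, 24 were lower and 4 higher, against 31.6% lower and 30.3% higher over all genes. In OCT4 against J1, 16 were higher and 13 lower, against 34.3% higher and 32.7% lower over all genes. At least 2-fold changes were called for 5 of the 36 genes in EWS-OCT4 against OCT4, 5 in EWS-OCT4 against J1 and 8 in OCT4 against J1, beside 24.3%, 20.5% and 26.5% of all genes. Most of the shifts were therefore smaller than 2-fold. The median log2 fold change of the 36 genes was -0.48, -0.47 and 0.13 in the 3 comparisons, beside -0.04, 0.00 and 0.01 over all tested genes. The comparisons share libraries with one another, so that they are not independent of each other.

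**Figure D1:**
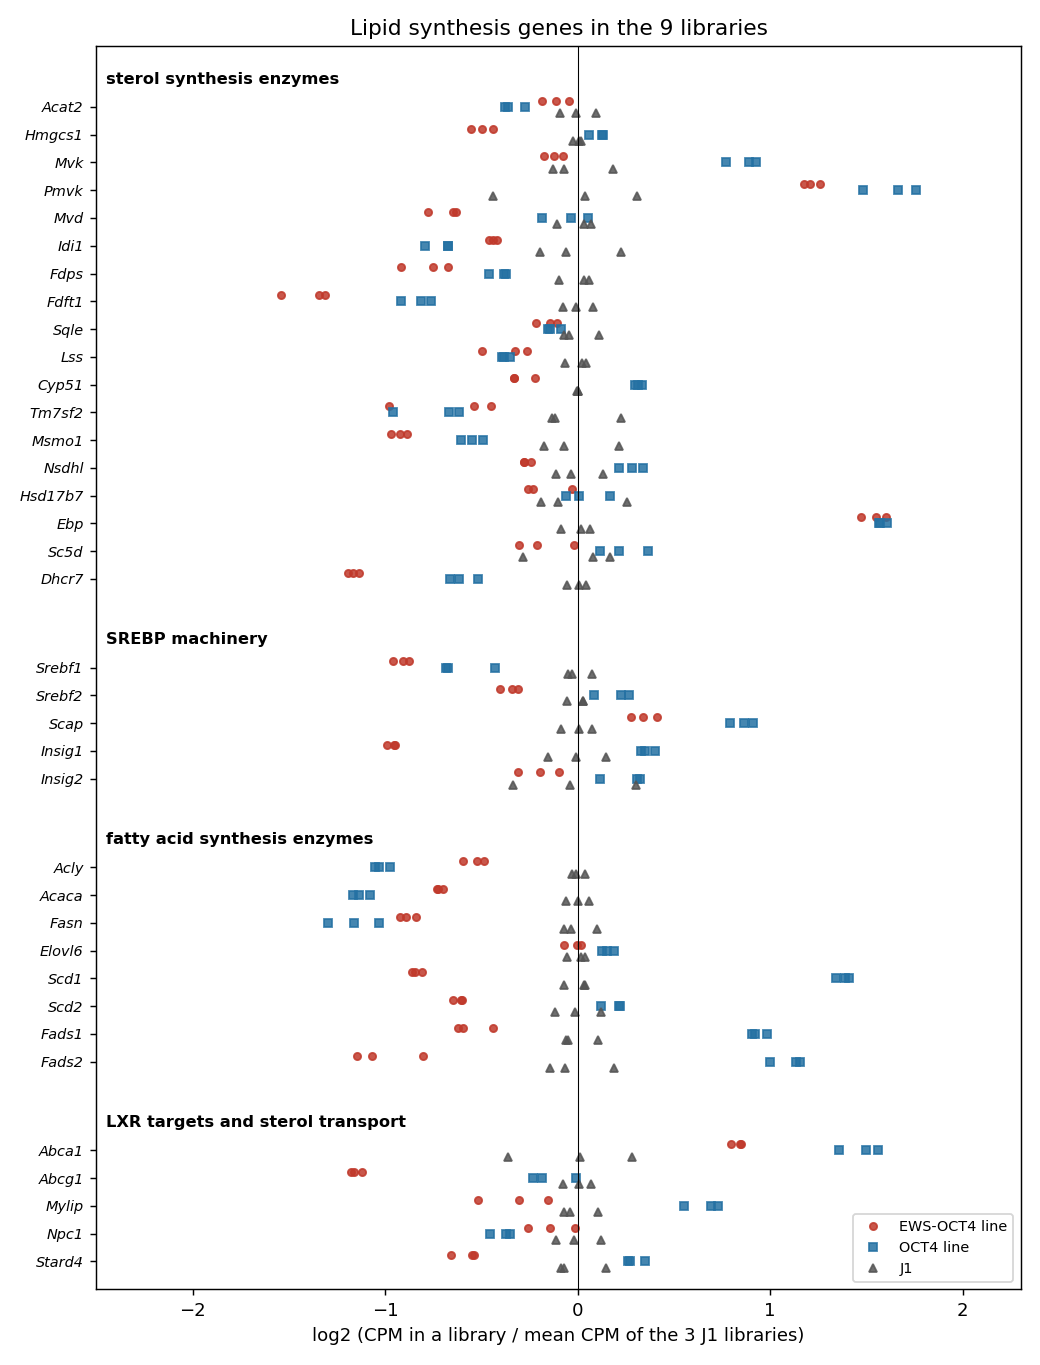
Each row is a gene and each point a library, placed by the log2 ratio of its CPM to the mean CPM of the 3 J1 libraries (red circles EWS-OCT4, blue squares OCT4, grey triangles J1). The red points lie left of the blue ones for 25 genes called lower in EWS-OCT4 than in OCT4 libraries, and Pmvk, Ebp, Scap and Abca1 stand right of J1 in both stable lines.

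Promoter windows of RefSeq (250 bases before to 50 after a gene's start, build GRCm38.p6) were found for 27 of the 36 genes. None was found for Fdps, Fdft1, Sqle, Scd1, Scd2, Fads1, Abcg1, Npc1 and Stard4. The letters TCACNCCAC, a sterol regulatory element searched on both strands, were in the window of 1 gene, Hmgcs1, and in 1.24% of all 32851 windows. CCAAT, the box bound by NF-Y, a usual partner of SREBP, was in the windows of 21 of the 27 genes, and in 62.9% of their 35 windows against 37.4% of all windows. It was in those of 14 of 15 sterol enzymes and 2 of 5 fatty acid enzymes, Acly and Fasn. The GC box GGGCGG was in 77.1% of these genes' windows against 35.7% of all, and the E-box CACGTG in 20% against 7.15%. All windows were counted whether or not their genes were expressed in these cells. The shares among expressed genes alone were not tested. Windows are printed for 4 genes the results turn on, with TCACNCCAC and CCAAT matches of either strand in capitals. Hmgcs1 (chr13:119690101-119690400, plus strand) holds the one sterol regulatory element, beginning 137 bases before the start, and Insig1 (chr5:28071162-28071461, plus strand) is the regulator with the largest change in the EWS-OCT4 line. Fads2 (chr19:10101454-10101753, minus strand), with no capitals, and Fasn (chr11:120824498-120824797, minus strand) encode fatty acid enzymes that moved in opposite directions in OCT4 against J1.
Hmgcs1: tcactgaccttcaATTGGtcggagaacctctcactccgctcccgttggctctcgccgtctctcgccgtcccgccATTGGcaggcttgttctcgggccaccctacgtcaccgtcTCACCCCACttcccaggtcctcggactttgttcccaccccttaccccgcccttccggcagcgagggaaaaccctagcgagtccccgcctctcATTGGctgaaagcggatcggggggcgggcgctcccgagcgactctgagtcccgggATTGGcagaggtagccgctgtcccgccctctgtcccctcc
Insig1: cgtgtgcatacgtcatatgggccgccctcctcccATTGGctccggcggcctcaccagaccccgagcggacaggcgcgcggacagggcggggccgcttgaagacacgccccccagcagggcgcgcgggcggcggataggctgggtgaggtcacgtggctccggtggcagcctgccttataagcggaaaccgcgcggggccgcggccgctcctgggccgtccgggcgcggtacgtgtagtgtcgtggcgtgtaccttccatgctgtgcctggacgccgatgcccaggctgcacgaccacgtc
Fads2: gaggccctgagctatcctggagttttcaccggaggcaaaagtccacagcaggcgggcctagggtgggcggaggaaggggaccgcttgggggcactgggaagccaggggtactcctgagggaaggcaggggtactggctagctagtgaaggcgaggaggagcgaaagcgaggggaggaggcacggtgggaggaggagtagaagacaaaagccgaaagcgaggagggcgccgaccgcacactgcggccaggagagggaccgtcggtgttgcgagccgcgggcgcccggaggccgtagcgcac
Fasn: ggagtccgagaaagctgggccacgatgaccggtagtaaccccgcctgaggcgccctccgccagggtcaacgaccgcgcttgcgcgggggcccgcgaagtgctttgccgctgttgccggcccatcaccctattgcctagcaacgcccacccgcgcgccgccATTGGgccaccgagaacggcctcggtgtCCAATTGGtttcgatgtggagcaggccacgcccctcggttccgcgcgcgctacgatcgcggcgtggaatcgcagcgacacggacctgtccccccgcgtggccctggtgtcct

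More enzymes of sterol synthesis were lower than higher in the EWS-OCT4 line. Of the 18 enzymes, 11 were lower and 2 higher in EWS-OCT4 than in OCT4 libraries, at a median of -0.39 on the log2 scale and with none past 2-fold. Against J1, 11 were lower and 2 higher in EWS-OCT4, with a median of -0.33 and 4 past 2-fold (Fdft1 and Dhcr7 lower, Pmvk and Ebp higher). In OCT4 against J1, 8 were lower and 5 higher, with a median of -0.09 and 2 past 2-fold, Pmvk and Ebp, both higher. Over all tested genes, 34.6% were lower and 31.9% higher in EWS-OCT4 against OCT4, and 31.6% lower and 30.3% higher in EWS-OCT4 against J1. In OCT4 against J1, 32.7% were lower and 34.3% higher. The counts of the other role groups below stand beside the same shares. The geometric mean over the 18 enzymes was 31.4 to 33.2 CPM in EWS-OCT4, 40.1 to 40.3 CPM in OCT4 and 38.8 to 41.0 CPM in J1 libraries. The range of the EWS-OCT4 libraries lay below both others, and that of the OCT4 libraries lay inside that of J1.

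At the head of the pathway, Hmgcs1, which joins acetoacetyl-CoA and acetyl-CoA into HMG-CoA, had 162, 155 and 149.8 CPM in EWS-OCT4, 240.1, 241 and 229 CPM in OCT4 and 223, 216 and 221 CPM in J1 libraries. Its EWS-OCT4 values were below all others, with a log2 fold change of -0.60 ± 0.063 (SE) against OCT4 (adjusted p = 1.89e-07) and -0.50 ± 0.0629 against J1 (adjusted p = 2.6e-06). OCT4 against J1 was not called (0.11, adjusted p = 0.141). Acat2, which makes acetoacetyl-CoA in the cytosol, averaged 43.0 ± 2.15 CPM in EWS-OCT4, 36.8 ± 1.46 CPM in OCT4 and 46.5 ± 3.09 CPM in J1 libraries (SD, n = 3 each). It was higher in EWS-OCT4 than in OCT4 (log2 fold change 0.22, adjusted p = 0.014), but leaving out EWS-OCT4 replicate 3 (adjusted p = 0.0635) or OCT4 replicate 3 (0.0543) ended this call. Of its transcript's 31-base words, 50.5% also occur in Acat3 and Tcp1, so its counts are uncertain. Tcp1 averaged 527, 447 and 641 CPM in EWS-OCT4, OCT4 and J1 libraries, and Acat3 at most 1.08 CPM. In EWS-OCT4 against OCT4, EWS-OCT4 against J1 and OCT4 against J1, Tcp1 changed by 0.24, -0.28 and -0.52. Acat2 changed by 0.22, -0.11 and -0.34. How far reads of Tcp1 enter the Acat2 counts was not tested.

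The mevalonate enzymes did not move as a block. Mvk, mevalonate kinase, had 11, 10.3 and 10.7 CPM in EWS-OCT4, 19.8, 21.5 and 22.1 CPM in OCT4 and 11, 13.2 and 10.6 CPM in J1 libraries. It was raised in the OCT4 line, 1.81-fold over J1 (adjusted p = 5.02e-07), and the EWS-OCT4 libraries overlapped J1 (log2 fold change -0.13, adjusted p = 0.293). Pmvk, the kinase of the next step, had 64.6, 67.0 and 63.1 CPM in EWS-OCT4, 78.2, 88.7 and 94.6 CPM in OCT4 and 20.6, 34.7 and 28.7 CPM in J1 libraries. Both stable lines stood above every J1 library, 2.32-fold in EWS-OCT4 (adjusted p = 2.45e-05) and 3.12-fold in OCT4 (1.31e-06). The smaller difference between EWS-OCT4 and OCT4 (log2 fold change -0.43, adjusted p = 0.0194) was lost when EWS-OCT4 replicate 1 or 3 or OCT4 replicate 2 or 3 was left out (adjusted p 0.0503 to 0.0699). Mvd, the decarboxylase that ends the mevalonate branch, had 14.9, 16.5 and 16.3 CPM in EWS-OCT4, 22.4, 26.5 and 25 CPM in OCT4 and 26.2, 26.8 and 23.7 CPM in J1 libraries. It was lower in EWS-OCT4 than in OCT4 (log2 fold change -0.63, adjusted p = 8.61e-06) and than in J1 (-0.68, adjusted p = 4.09e-06), without overlap. Idi1, the isopentenyl diphosphate isomerase, averaged 65.2 ± 0.849 CPM in EWS-OCT4, 53.9 ± 2.54 CPM in OCT4 and 88.5 ± 13.6 CPM in J1 libraries and was lower than J1 in both stable lines (log2 fold changes -0.44 and -0.71). Its rise in EWS-OCT4 over OCT4 (0.27, adjusted p = 0.0117) was lost without OCT4 replicate 2 (adjusted p = 0.059). Of its words, 32.0% are shared with other genes.

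From farnesyl diphosphate to squalene, both measured enzymes were lowest in EWS-OCT4 and highest in J1 libraries. Fdft1, squalene synthase, the first enzyme committed to sterols, had 48.2, 55.4 and 56.5 CPM in EWS-OCT4, 79.9, 74.2 and 82.7 CPM in OCT4 and 133, 148 and 139.8 CPM in J1 libraries. No values overlapped between groups, and the EWS-OCT4 level was 0.38 of J1 (log2 fold change -1.39 ± 0.0756, adjusted p = 6.72e-11) and 0.676 of OCT4 (-0.56, adjusted p = 3.93e-06). It was also lower in OCT4 than in J1 (-0.83, adjusted p = 2.06e-08). Fdft1 shares 36.8% of its words, mainly with its neighbour Ctsb, a lysosomal protease gene, which was itself lower in EWS-OCT4 than in OCT4 (log2 fold change -1.04) and than in J1 (-0.92). How far reads of Ctsb enter the Fdft1 counts was not tested. Fdps, farnesyl diphosphate synthase, averaged 50.2 ± 4.31 CPM in EWS-OCT4, 65.0 ± 2.1 CPM in OCT4 and 86.1 ± 4.96 CPM in J1 libraries and was called in all 3 comparisons, with -0.37, -0.78 and -0.40. Since 89.7% of its words occur in predicted genes as well, its counts are uncertain.

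Of the enzymes from squalene to the first step after lanosterol, Cyp51 was called in all 3 comparisons, Lss in 2 and Sqle in none. Sqle, squalene epoxidase, averaged 66.7 ± 2.56 CPM in EWS-OCT4, 67.9 ± 1.75 CPM in OCT4 and 74.2 ± 5.15 CPM in J1 libraries and was called in no comparison (adjusted p 0.0564 to 0.744), although leaving out J1 replicate 2 or 3 made EWS-OCT4 against J1 a call (adjusted p 0.0302 and 0.0469), and J1 replicate 3 likewise OCT4 against J1 (0.0476). Lss, which closes the ring to lanosterol, averaged 45.1 ± 3.68, 44.6 ± 0.658 and 57.9 ± 2.32 CPM in EWS-OCT4, OCT4 and J1 libraries, and was lower than J1 in both stable lines (log2 fold changes -0.36 and -0.38). Cyp51, which removes the first methyl group from lanosterol, had 44.1, 40.9 and 40.9 CPM in EWS-OCT4, 63.9, 63.3 and 64.8 CPM in OCT4 and 51.4, 51.6 and 51.4 CPM in J1 libraries. Its J1 values lay between those of the stable lines. It was lower in EWS-OCT4 than in OCT4 (-0.61, adjusted p = 2.49e-07) and J1 (-0.29, adjusted p = 0.000811) and higher in OCT4 than in J1 (0.31, adjusted p = 0.00032).

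Among the enzymes that demethylate and reshape the rings, Msmo1, the sterol C4 methyl oxidase, averaged 47.2 ± 1.35 CPM in EWS-OCT4, 61.3 ± 2.5 CPM in OCT4 and 89.6 ± 12.9 CPM in J1 libraries. It was called lower in all 3 comparisons (-0.38, -0.93 and -0.55). Nsdhl, which works on the same carbon, averaged 23.5 ± 0.362 CPM in EWS-OCT4, 34.3 ± 1.44 CPM in OCT4 and 28.3 ± 2.48 CPM in J1 libraries, lower in EWS-OCT4 than in both others (-0.54 against OCT4, -0.27 against J1) and higher in OCT4 than in J1 (0.28). Hsd17b7, the 3-ketosteroid reductase of that complex, averaged 18.6 ± 1.64, 21.5 ± 1.76 and 20.9 ± 3.55 CPM in EWS-OCT4, OCT4 and J1 libraries and passed no test (adjusted p 0.107 to 0.775), although EWS-OCT4 against OCT4 became a call without J1 replicate 1 (adjusted p = 0.0388), and EWS-OCT4 against J1 without J1 replicate 2 (0.044). Tm7sf2, a sterol C14 reductase, was the rarest enzyme at 2.36 ± 0.44, 2.2 ± 0.269 and 3.68 ± 0.537 CPM in those groups, and was called lower than J1 in both stable lines. Its EWS-OCT4 call against J1 (-0.64, adjusted p = 0.0081) ended when EWS-OCT4 replicate 2 was left out (0.0579).

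The last enzymes included one gene raised and one lowered in both stable lines relative to J1. Ebp, the sterol isomerase that moves the ring double bond, had 31.1, 30.0 and 28.5 CPM in EWS-OCT4, 30.4, 30.5 and 31.2 CPM in OCT4 and 9.68, 10.7 and 10.4 CPM in J1 libraries. The 2 stable lines overlapped each other (log2 fold change -0.04, adjusted p = 0.662) and stood far above J1, 2.91-fold in EWS-OCT4 (adjusted p = 6.49e-11) and 2.99-fold in OCT4 (1.98e-11). Dhcr7, whose product performs the final reduction to cholesterol, had 28.3, 28.9 and 27.7 CPM in EWS-OCT4, 44.3, 41.4 and 40.1 CPM in OCT4 and 65.4, 61.1 and 63.8 CPM in J1 libraries. It ran the other way from Ebp, with no overlap between groups and log2 fold changes of -0.57 in EWS-OCT4 against OCT4 (adjusted p = 1.78e-06), -1.17 in EWS-OCT4 against J1 (2.5e-10) and -0.60 in OCT4 against J1 (5.02e-07). Sc5d, the sterol C5 desaturase, averaged 21.7 ± 2.23 CPM in EWS-OCT4, 28.8 ± 2.49 CPM in OCT4 and 24.4 ± 3.87 CPM in J1 libraries and was called lower in EWS-OCT4 than in OCT4 (-0.41, adjusted p = 0.00387). Its other comparisons did not pass (adjusted p = 0.191 in EWS-OCT4 and 0.0696 in OCT4 against J1), but both became calls without 1 J1 library, at 0.0106 without J1 replicate 2 and 0.0115 without J1 replicate 1.

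In the SREBP machinery, all 5 genes were lower in EWS-OCT4 than in OCT4 libraries, with a median log2 fold change of -0.51. Insig1 moved most. Against J1, EWS-OCT4 had 3 genes lower and 1 higher, and OCT4 had 3 higher and 1 lower. The geometric mean of the 5 genes was 38.3 to 39.5 CPM in EWS-OCT4, 58.3 to 63.0 CPM in OCT4 and 49.1 to 55.7 CPM in J1 libraries, in 3 ranges that did not overlap.

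Insig1, an inhibitor that retains SCAP and that SREBP itself induces, had 23.7, 24.4 and 24.4 CPM in EWS-OCT4, 59.3, 59.99 and 62.3 CPM in OCT4 and 52.3, 42.4 and 46.9 CPM in J1 libraries. The EWS-OCT4 values were tightly grouped below the rest, at 0.399 of OCT4 (log2 fold change -1.33 ± 0.0803, adjusted p = 1.59e-10) and 0.512 of J1 (-0.97 ± 0.0805, adjusted p = 1.66e-08), and OCT4 stood above J1 (0.36, adjusted p = 0.000472). Insig2, its relative, had 17.3, 14.9 and 16.2 CPM in EWS-OCT4, 22.9, 23.2 and 20.1 CPM in OCT4 and 22.9, 14.7 and 18.1 CPM in J1 libraries. J1 overlapped both stable lines. Only EWS-OCT4 against OCT4 was called (-0.45, adjusted p = 0.00552; against J1, adjusted p = 0.189 in EWS-OCT4 and 0.0929 in OCT4), and without J1 replicate 1 OCT4 against J1 became a call (0.43, adjusted p = 0.00103), as did EWS-OCT4 against J1 without J1 replicate 2 (-0.35, adjusted p = 0.00881).

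Srebf2, the SREBP that favours sterol genes, had 127, 133 and 135 CPM in EWS-OCT4, 178, 202 and 197 CPM in OCT4 and 171, 171 and 162 CPM in J1 libraries. It was lower in EWS-OCT4 than in OCT4 (-0.55, adjusted p = 1.52e-06) and J1 (-0.35, adjusted p = 0.000224). Its small excess in OCT4 over J1 (0.20, adjusted p = 0.0161) was lost without OCT4 replicate 2, OCT4 replicate 3 or J1 replicate 3 (adjusted p 0.0544 to 0.0928). Srebf1, which favours fatty acid genes, had 43.3, 42.5 and 40.9 CPM in EWS-OCT4, 49.8, 59.0 and 49.6 CPM in OCT4 and 77.9, 83.8 and 76.9 CPM in J1 libraries. Here J1 was highest and EWS-OCT4 lowest without overlap, with -0.32 in EWS-OCT4 against OCT4 (adjusted p = 0.00139), -0.91 in EWS-OCT4 against J1 (1.77e-08) and -0.59 in OCT4 against J1 (2.04e-06). Scap, the escort protein, had 42.5, 40.3 and 38.6 CPM in EWS-OCT4, 58.0, 59.9 and 55.1 CPM in OCT4 and 33.6, 32.1 and 30.0 CPM in J1 libraries. It was highest in OCT4 and lowest in J1, with log2 fold changes of -0.51 in EWS-OCT4 against OCT4 (adjusted p = 7.2e-06), 0.34 in EWS-OCT4 against J1 (0.000646) and 0.85 in OCT4 against J1 (1.21e-08).

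Fatty acid synthesis split into 2 blocks, apart from Elovl6, which changed little. The genes that build palmitate, Acly, Acaca and Fasn, were lowest in OCT4 and highest in J1 libraries, and the 4 desaturase genes had their lowest mean in EWS-OCT4 and their highest in OCT4 libraries. Counting Elovl6, 5 of the 8 enzymes were lower and 3 higher in EWS-OCT4 than in OCT4, with a median log2 fold change of -0.49. In EWS-OCT4 against J1, 7 were lower and none higher (median -0.67), and in OCT4 against J1, 5 were higher and 3 lower (median 0.17). The geometric mean of the 8 was 103 to 106 CPM in EWS-OCT4, 167 to 176 CPM in OCT4 and 161 to 168 CPM in J1 libraries.

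**Figure D2:**
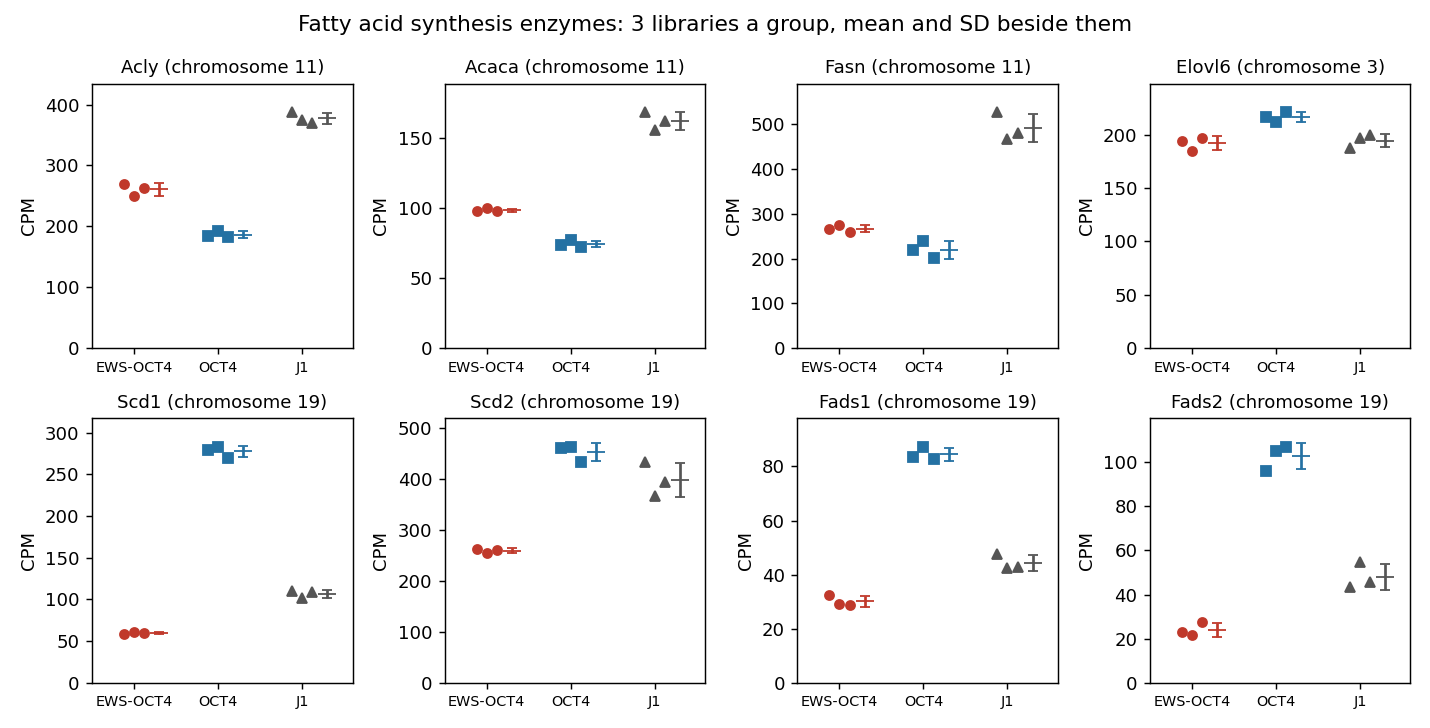
The panels give CPM of the 8 fatty acid synthesis enzymes in the 3 libraries of each group, with mean and SD beside them. Acly, Acaca and Fasn are highest in J1, with EWS-OCT4 between J1 and OCT4, whereas Scd1, Fads1 and Fads2 are highest in OCT4 and lowest in EWS-OCT4.

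Scd1, which puts the first double bond into stearate and palmitate, had 58.7, 60.9 and 59.4 CPM in EWS-OCT4, 279.7, 283 and 270.1 CPM in OCT4 and 109.7, 101 and 109 CPM in J1 libraries. All EWS-OCT4 libraries were below J1 and all OCT4 libraries above it. It fell by 2.22 ± 0.0658 on the log2 scale in EWS-OCT4 against OCT4 (SE, adjusted p = 2.32e-14) and by 0.84 against J1 (adjusted p = 5.95e-09), and was 2.6-fold higher in OCT4 than in J1 (adjusted p = 3.47e-12). Scd2, a second stearoyl-CoA desaturase that is more abundant here, had 263, 255 and 262 CPM in EWS-OCT4, 462, 464 and 433 CPM in OCT4 and 434, 367 and 395 CPM in J1 libraries. It was lower in EWS-OCT4 than in OCT4 (-0.80, adjusted p = 2.37e-08) and J1 (-0.62, adjusted p = 8.09e-07). OCT4 and J1 overlapped, and their difference (0.18, adjusted p = 0.0284) was lost when any 1 of 7 libraries was left out, all but OCT4 replicate 3 and J1 replicate 1 (adjusted p 0.0536 to 0.111). Scd1 and Scd2 share 8.3% and 6.86% of their words with other Scd genes.

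Fads2, the delta-6 desaturase of polyunsaturated fatty acid synthesis, had 22.9, 21.6 and 27.5 CPM in EWS-OCT4, 95.9, 105 and 107 CPM in OCT4 and 43.5, 54.7 and 45.8 CPM in J1 libraries. The groups did not overlap. The level in EWS-OCT4 was 0.234 of OCT4 (log2 fold change -2.10 ± 0.0992, adjusted p = 8.38e-12) and 0.501 of J1 (-1.0, adjusted p = 1.67e-07), and OCT4 was 2.14-fold above J1 (adjusted p = 1.45e-08). Fads1, the delta-5 desaturase that acts after it, had 32.5, 29.3 and 28.7 CPM in EWS-OCT4, 83.5, 87.3 and 82.6 CPM in OCT4 and 47.6, 42.3 and 42.6 CPM in J1 libraries. It followed the same order, with log2 fold changes of -1.49 in EWS-OCT4 against OCT4 (adjusted p = 1.38e-11), -0.55 in EWS-OCT4 against J1 (6.18e-06) and 0.93 in OCT4 against J1 (3.43e-09). All 4 desaturase genes lie on chromosome 19, whose 539 tested genes had medians of -0.01, 0.07 and 0.05 in the same comparisons.

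Acaca, the acetyl-CoA carboxylase that makes malonyl-CoA, had 97.8, 99.6 and 97.5 CPM in EWS-OCT4, 73.8, 76.8 and 72.1 CPM in OCT4 and 168, 155 and 162 CPM in J1 libraries. It was higher in EWS-OCT4 than in OCT4 (0.41, adjusted p = 2.2e-05) and lower than J1 in EWS-OCT4 (-0.72, adjusted p = 2.67e-08) and in OCT4 (-1.13, adjusted p = 4.67e-11). A predicted gene shares 56.8% of its words, so its counts are uncertain. Fasn, fatty acid synthase, had 266, 274 and 259 CPM in EWS-OCT4, 219.5, 240.2 and 200.4 CPM in OCT4 and 528, 468 and 481 CPM in J1 libraries. The order was the same, with 0.28 in EWS-OCT4 against OCT4 (adjusted p = 0.00376), -0.89 in EWS-OCT4 against J1 (2.15e-08) and -1.16 in OCT4 against J1 (3.44e-10). Acly, which makes cytosolic acetyl-CoA from citrate, averaged 261 ± 10.2 CPM in EWS-OCT4, 186 ± 5.29 CPM in OCT4 and 378 ± 9.16 CPM in J1 libraries (SD, n = 3 each), with 0.48 in EWS-OCT4 against OCT4 (adjusted p = 3.19e-06), -0.54 in EWS-OCT4 against J1 (1.18e-06) and -1.02 in OCT4 against J1 (2.02e-10). Elovl6, which lengthens palmitate, averaged 192 ± 6.23, 216 ± 4.64 and 194 ± 6.29 CPM in EWS-OCT4, OCT4 and J1 libraries. It was called against OCT4 in EWS-OCT4 (-0.17, adjusted p = 0.0218) and in OCT4 against J1 (0.16, adjusted p = 0.0364). The first was lost without any 1 of EWS-OCT4 replicates 1, 2 and 3 and OCT4 replicate 3 (adjusted p 0.0519 to 0.169). The second was lost without any 1 of 7 libraries, all but OCT4 replicate 2 and J1 replicate 2 (adjusted p 0.0632 to 0.103).

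Acly, Acaca, Fasn and Srebf1 all lie on chromosome 11, and that chromosome as a whole was low in both stable lines relative to J1. Its 1327 tested genes had a median log2 fold change of -0.51 in EWS-OCT4 and -0.46 in OCT4 against J1, with 66.2% and 58.7% of them called lower, and of -0.07 in EWS-OCT4 against OCT4. Chromosome 8, which carries Mvd and Msmo1, had medians of -0.44 and -0.47 against J1. The X chromosome, which carries Nsdhl and Ebp, had medians of -0.52 in EWS-OCT4 against OCT4, 0.14 in EWS-OCT4 against J1 and 0.63 in OCT4 against J1. Measured from the median of its own chromosome, Acly in EWS-OCT4 against J1 was at -0.02 and no longer called (adjusted p = 0.77), nor were Srebf1 (-0.13, adjusted p = 0.139) and Msmo1 (-0.08, adjusted p = 0.42) in OCT4 against J1, nor Nsdhl in EWS-OCT4 against OCT4 (-0.03, adjusted p = 0.784). Relative to the X median, Nsdhl in OCT4 against J1 turned to -0.35 (adjusted p = 0.000922) and Ebp in EWS-OCT4 against OCT4 to 0.48 (adjusted p = 2.93e-05). Relative to the chromosome 8 median, Mvd in OCT4 against J1 became 0.42 (adjusted p = 0.000447). Smaller chromosome medians ended the Scap call in EWS-OCT4 against J1 (0.16, adjusted p = 0.0707) and the Scd2 and Elovl6 calls in OCT4 against J1 (adjusted p = 0.0996 and 0.254). Before the subtraction, these Ebp and Mvd differences had not been called (adjusted p = 0.662 and 0.603). It also added 5 further calls, all lower in EWS-OCT4 than in J1: Mvk (-0.28, adjusted p = 0.0288), Sqle (-0.18, 0.0309), Sc5d (-0.35, 0.0126), Elovl6 (-0.17, 0.0256) and Npc1 (-0.23, 0.0214). With it, 14 sterol enzymes instead of 11 were lower in EWS-OCT4 than in J1. In EWS-OCT4 against OCT4, 10 instead of 11 were lower and 3 instead of 2 higher. The part of chromosome-wide shifts in these results was not tested beyond this subtraction, and copy number was not analysed here.

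**Figure D3:**
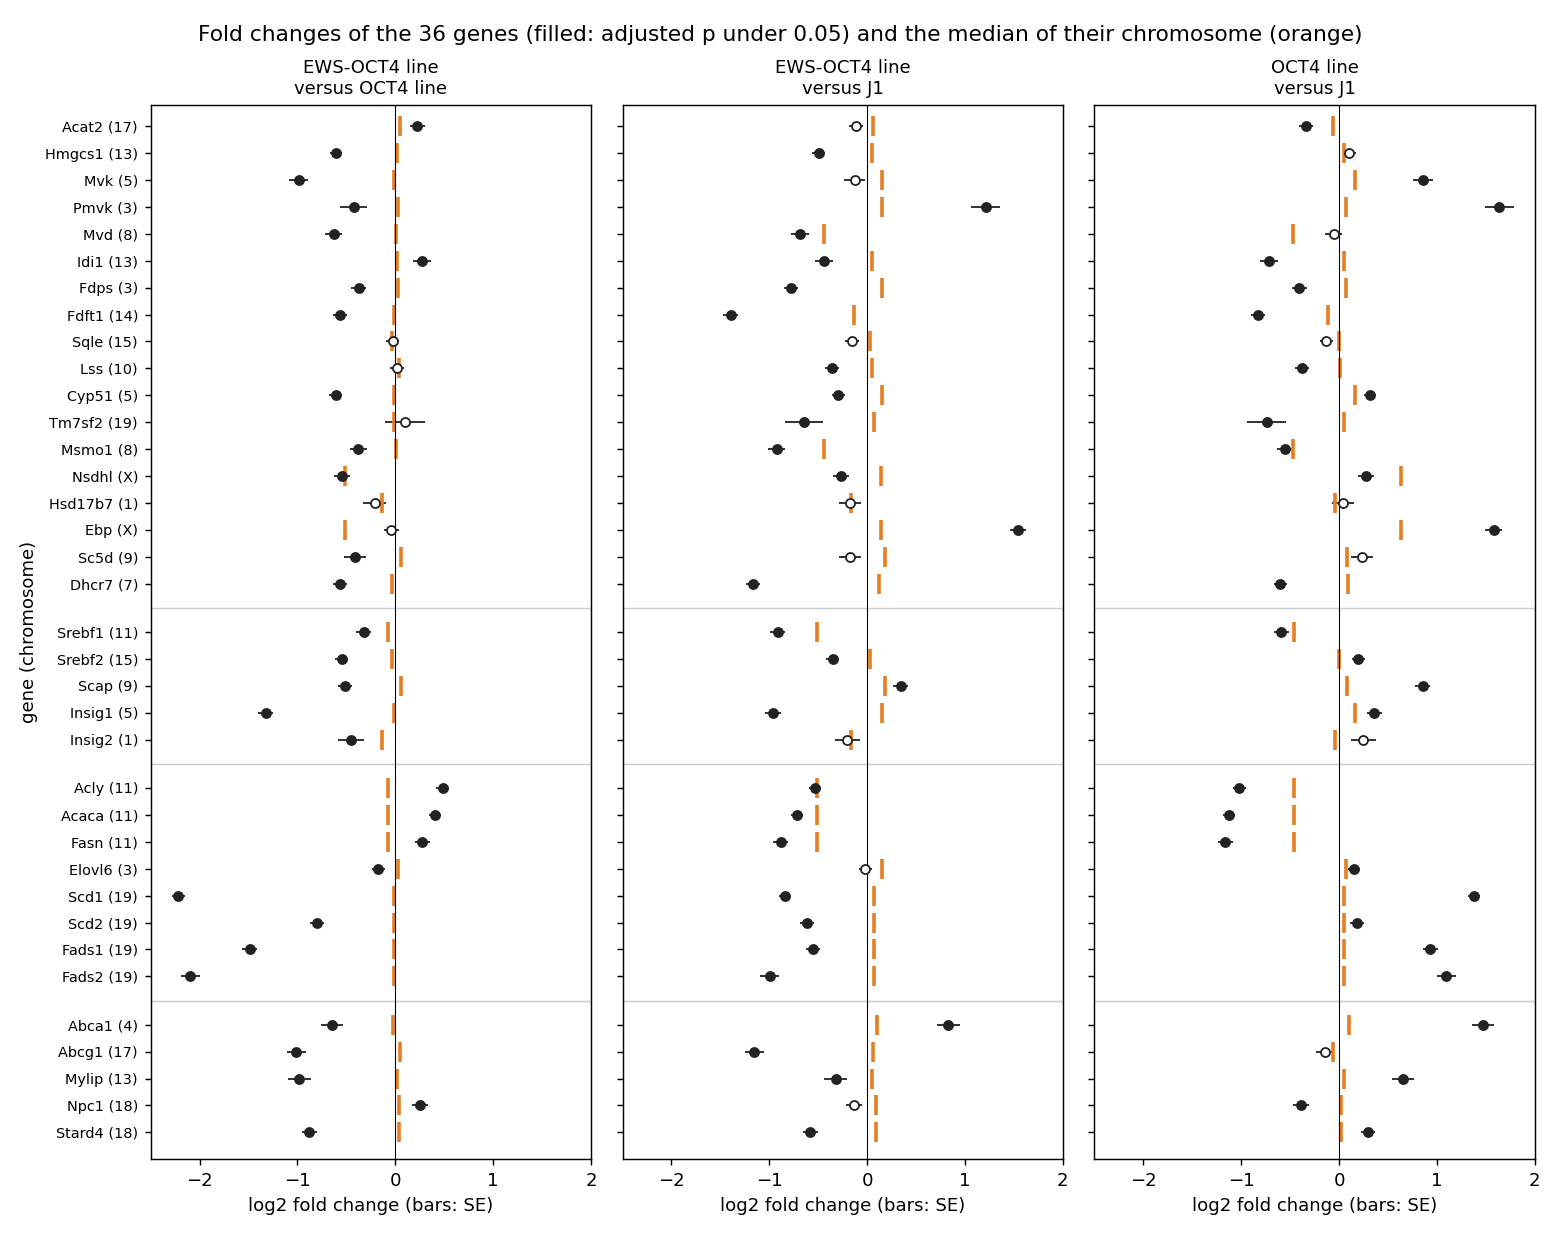
Points are log2 fold changes with SE for the 36 genes in 3 comparisons (filled where the adjusted p was under 0.05), and orange bars mark the median of all tested genes on the same chromosome, whose name stands in parentheses. The desaturase genes lie far from the chromosome 19 bar, whereas Acly in EWS-OCT4 against J1, at -0.54, lies on the chromosome 11 bar at -0.51.

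Of the 5 LXR targets and sterol transport genes, 4 were lower and 1 higher in EWS-OCT4 than in OCT4 (median log2 fold change -0.88), 3 lower and 1 higher in EWS-OCT4 than in J1 (median -0.32), and 3 higher and 1 lower in OCT4 than in J1 (median 0.30). Abca1 and Abcg1, which both export cholesterol and are both textbook LXR targets, differed in their order across the groups. Abca1 had 34.3, 35.6 and 35.4 CPM in EWS-OCT4, 55.7, 58.1 and 50.6 CPM in OCT4 and 24.0, 15.4 and 19.9 CPM in J1 libraries. It was above J1 in both stable lines, 1.78-fold in EWS-OCT4 (adjusted p = 1.45e-05) and 2.77-fold in OCT4 (1.04e-08), and lower in EWS-OCT4 than in OCT4 (-0.64, adjusted p = 9.46e-05). Abcg1 had 8.51, 8.61 and 8.85 CPM in EWS-OCT4, 16.9, 19.2 and 16.4 CPM in OCT4 and 20.2, 19.3 and 18.2 CPM in J1 libraries. It was at 0.496 of OCT4 (-1.01, adjusted p = 5.97e-08) and 0.45 of J1 (-1.15, adjusted p = 1.53e-08) in EWS-OCT4, and OCT4 overlapped J1 (-0.14, adjusted p = 0.174).

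Mylip, a ubiquitin ligase that removes lipoprotein receptors, had 7.6, 5.89 and 6.82 CPM in EWS-OCT4, 14.0, 13.6 and 12.4 CPM in OCT4 and 9.08, 8.22 and 8.04 CPM in J1 libraries. It was highest in OCT4, with -0.98 in EWS-OCT4 against OCT4 (adjusted p = 9.65e-07) and 0.66 in OCT4 against J1 (6.05e-05). The call in EWS-OCT4 against J1 (-0.32, adjusted p = 0.0273) was lost when J1 replicate 1 or either of EWS-OCT4 replicates 2 and 3 was left out (adjusted p 0.0601 to 0.167). Stard4, a cytosolic sterol carrier induced by SREBP2, had 34.3, 34.6 and 31.9 CPM in EWS-OCT4, 60.3, 60.7 and 64.2 CPM in OCT4 and 55.6, 47.4 and 48.0 CPM in J1 libraries. Its 3 groups did not overlap, with -0.88 in EWS-OCT4 against OCT4 (adjusted p = 2.09e-08), -0.58 in EWS-OCT4 against J1 (4.43e-06) and 0.30 in OCT4 against J1 (0.00216). Npc1, which lets cholesterol leave lysosomes, had 49.7, 42.0 and 45.4 CPM in EWS-OCT4, 39.3, 38.8 and 36.6 CPM in OCT4 and 54.7, 46.5 and 49.5 CPM in J1 libraries. It was the group's exception, higher in EWS-OCT4 than in OCT4 (0.26, adjusted p = 0.0105, and 0.0501 without EWS-OCT4 replicate 1) and lower in OCT4 than in J1 (-0.39, adjusted p = 0.000355). EWS-OCT4 against J1 was not called (-0.14, adjusted p = 0.15, but 0.0418 without J1 replicate 2).

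The ratios between 4 pairs of related genes are given as values, since none of their tests could pass. Per kilobase of the longest coding transcript, the ratio of Scd1 to Scd2 was 0.252, 0.27 and 0.256 in EWS-OCT4, 0.683, 0.689 and 0.704 in OCT4 and 0.285, 0.312 and 0.312 in J1 libraries. The OCT4 line stood apart, and EWS-OCT4 lay just under J1. The ratio of Insig1 to Insig2 averaged 1.5 ± 0.131 in EWS-OCT4, 2.76 ± 0.299 in OCT4 and 2.59 ± 0.302 in J1 libraries (SD, n = 3 each), and that of Srebf1 to Srebf2 averaged 0.379 ± 0.023, 0.324 ± 0.0239 and 0.559 ± 0.0201 in the same groups. For Fads2 to Fads1 the means were 0.88 ± 0.152, 1.34 ± 0.0815 and 1.2 ± 0.209, and J1 overlapped both stable lines. With 3 libraries against 3, a two-sided exact permutation test cannot go below p = 0.1, which was the value for each non-overlapping pair. The 12 tests had Benjamini-Hochberg adjusted exact p of 0.133 to 0.6. Per kilobase, the most abundant of the 36 genes in J1 libraries was Acly at a mean level of 85.3 CPM per kb, and in OCT4 libraries Scd2 at 83.1 CPM per kb. In EWS-OCT4 libraries it was Acly at 58.9 CPM per kb, and the rarest in J1 was Abca1 at 1.93 CPM per kb.

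**Figure D4:**
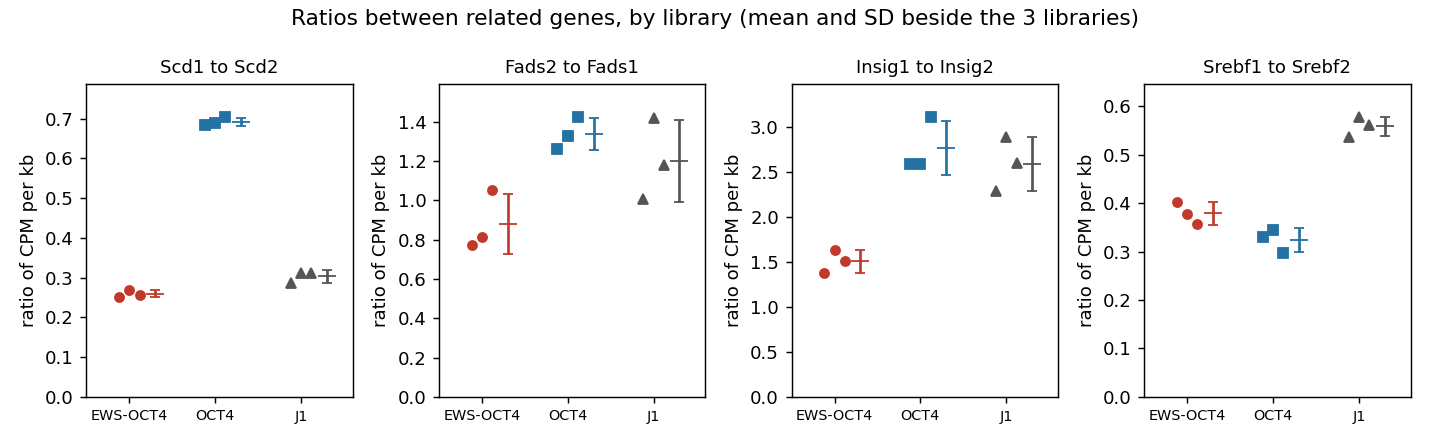
The panels give ratios of CPM per kb between related genes in the 3 libraries of each group, with mean and SD beside them. The Scd1 to Scd2 ratio is 0.683 to 0.704 in the OCT4 libraries and at most 0.312 in all others, and the Insig1 to Insig2 ratio is lowest in EWS-OCT4.

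Further genes of the same pathways were read from 5 lists. Their counts stand beside the shares over all tested genes. These were 31.9% higher and 34.6% lower in EWS-OCT4 against OCT4, and 30.3% higher and 31.6% lower in EWS-OCT4 against J1. In OCT4 against J1 they were 34.3% higher and 32.7% lower. The counts of the isoprenoid branch in EWS-OCT4 against OCT4 lay near these shares. Of 8 genes that process SREBP or turn over INSIG, 6 were higher and none lower in EWS-OCT4 than in OCT4 libraries, where the 5 SREBP machinery genes were all lower. Rnf139, a ubiquitin ligase of the endoplasmic reticulum, averaged 25.2 ± 2.14 CPM in EWS-OCT4 and 17.6 ± 1.65 CPM in OCT4 libraries (SD, n = 3 each; log2 fold change 0.52, adjusted p = 0.00019). Against J1, 2 of the 8 were higher and 2 lower in EWS-OCT4, and 1 higher and 5 lower in OCT4. The ligase gene Rnf145, on chromosome 11, was lowest relative to J1 in both, at -1.01 in EWS-OCT4 and -1.36 in OCT4. In the isoprenoid branch, which leads from farnesyl diphosphate to ubiquinone, dolichol and prenylated proteins, 3 of 8 genes were higher and 2 lower in EWS-OCT4 than in OCT4, 3 higher and 2 lower in EWS-OCT4 than in J1, and 3 higher and 5 lower in OCT4 than in J1. Pdss1, which makes the ubiquinone side chain, averaged 19.5 ± 2.16 CPM in EWS-OCT4, 9.13 ± 0.685 CPM in OCT4 and 12.5 ± 2.1 CPM in J1 libraries. Coq2, which attaches that chain, went the other way at 27.4 ± 0.516, 43.7 ± 2 and 27.3 ± 1.24 CPM, with -0.67 in EWS-OCT4 against OCT4 (adjusted p = 3.27e-07).

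Among 15 other lipid synthesis genes, 7 were lower and 2 higher in EWS-OCT4 than in OCT4, 5 lower and 3 higher in EWS-OCT4 than in J1, and 2 lower and 7 higher in OCT4 than in J1. Acsl4, an acyl-CoA synthetase for polyunsaturated fatty acids on the X chromosome, averaged 57.6 ± 2.18 CPM in EWS-OCT4, 135 ± 3.31 CPM in OCT4 and 67.9 ± 10.1 CPM in J1 libraries, with -1.23 in EWS-OCT4 against OCT4 (adjusted p = 1.38e-09). Lpin1, a phosphatidate phosphatase, averaged 33.0 ± 1.63 CPM in EWS-OCT4, 77.0 ± 5.99 CPM in OCT4 and 73.9 ± 2.09 CPM in J1 libraries, lower in EWS-OCT4 against both (-1.22 and -1.16). The triglyceride synthesis genes Dgat1 and Dgat2 were the 2 higher ones in EWS-OCT4 than in OCT4 (0.77 and 0.78), and both were lower in OCT4 than in J1 (-0.76 and -0.97). Among 11 LXR and RXR receptor and sterol trafficking genes, 4 were higher and 4 lower in EWS-OCT4 than in OCT4, 3 higher and 4 lower in EWS-OCT4 than in J1, and 3 higher and 6 lower in OCT4 than in J1. The counts in EWS-OCT4 against OCT4 lay near the shares over all tested genes, 31.9% higher and 34.6% lower. Nr1h2, which encodes LXR beta, averaged 51.9 ± 3.37 CPM in EWS-OCT4, 32.7 ± 1.66 CPM in OCT4 and 45.9 ± 4.09 CPM in J1 libraries (0.66 in EWS-OCT4 against OCT4, adjusted p = 1.33e-06). Scarb1, a receptor that takes up cholesterol esters, averaged 41.4 ± 0.552, 82.5 ± 2.03 and 38.6 ± 1.77 CPM in those groups (-1.0 in EWS-OCT4 against OCT4, adjusted p = 4.79e-10).

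Of 13 fatty acid oxidation genes, 11 could be tested, and 6 were lower and 3 higher in EWS-OCT4 than in OCT4, 5 lower and 6 higher in EWS-OCT4 than in J1, and 3 lower and 6 higher in OCT4 than in J1. The carnitine carrier Slc25a20 averaged 28.3 ± 1.71 CPM in EWS-OCT4, 82.8 ± 6.04 CPM in OCT4 and 17.0 ± 0.0392 CPM in J1 libraries, with -1.55 in EWS-OCT4 against OCT4 (adjusted p = 1.03e-11) and 2.29 in OCT4 against J1 (9.05e-14). Cpt1a, the carnitine palmitoyltransferase that admits fatty acids to mitochondria, was 2.27-fold higher in OCT4 than in J1 (adjusted p = 1.08e-09). Carnitine shuttle genes were thus among those higher in OCT4 than in J1. By contrast Hadhb, a subunit of the mitochondrial trifunctional protein, was higher in EWS-OCT4 than in OCT4 (0.72, adjusted p = 2.24e-05).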

How the data were processed

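The authors deposited 1 table per library of whole-number counts per gene symbol, with no normalization, for 9 total RNA libraries made with the CORALL V2 kit, per the labels' protocols. Per the submitters' processing notes, fastp, STAR, Salmon, GATK and the build GRCm39 were used, with no versions. The sources used here do not give the annotation, the use of strand or the treatment of molecular identifiers, so counts of overlapping genes and near copies are uncertain.

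Sample titles gave each library's group and number. The replicates of each group differed by more than counting noise (chi-square per degree of freedom 3.21 to 29.2), and each was counted as 1 sample. This spread does not show whether they were separate cultures. Low genes were removed with filterByExpr of edgeR, set to a minimum count of 10 and a total of 15, and 16562 of 40213 remained. All 9 libraries entered 1 edgeR 4.0.16 fit of 3 groups (R 4.3.3, TMM factors 0.958 to 1.03, robust glmQLFit, glmQLFTest), with Benjamini-Hochberg adjustment at 0.05. Each standard error was computed as |log2 fold change| over sqrt(F). The fit was first tested on counts simulated from its own estimates of spread, which checks the code and not how well the model describes these data.

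The 36 genes and all lists were chosen with earlier results of these data known. Values of every library are printed for called genes of at least 5 CPM among the 4 largest changes of their role group in any comparison and for the Srebf, Insig, Scd and Fads pairs. Of each further list, up to 2 genes per direction and comparison could be named. Acat3, Tcp1 and Ctsb are named only for sequence they share with the 36 genes. Transcript lengths and shared 31-base words came from GENCODE M21, and chromosomes (16100 of the tested genes matched by symbol) from RefSeq. The largest shared portions not given with their genes above were 15.3% for Scap, 14.6% for Hmgcs1 and 10.1% for Npc1. How far reads of other genes enter their counts was not tested.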

Additional observations from a re-analysis of the deposited data

How the results depend on the processing

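Of 108 values (36 genes in 3 comparisons), DESeq2 1.42.0, voom in limma 3.58.1 and leaving out mitochondrial genes with Gm26917 changed no call or direction. RLE scaling changed 1, upper-quartile scaling 2, a minimum of 5 CPM in 3 libraries 2 of 105, no low-count filter 6, fits of only the 6 libraries compared 4, and distance from the chromosome median 17. Deviations from the group means correlated at 0.00541 to 0.156 between same-numbered libraries of different groups. Between libraries of different numbers the correlations were -0.162 to 0.124. These overlapping ranges do not settle whether the numbers pair samples, and the main fit used no pairing. With the replicate block, 3 further values passed, Sqle in EWS-OCT4 against J1 (-0.15), and Sc5d (0.24) and Insig2 (0.26) in OCT4 against J1. Directions turned as follows, the cause not tested. In EWS-OCT4 against OCT4, Sqle became 0.0002 with no filter and 0.009 relative to its chromosome, and Lss -0.0223 by upper quartile, -0.0254 with the 5 CPM minimum and -0.022 relative to its chromosome, while Ebp became 0.48 relative to its chromosome. In OCT4 against J1, Mvd became 0.42 and Nsdhl -0.35 relative to their chromosomes. Leaving out 1 library at a time gave -0.0401 to 0.0249 for Sqle, -0.0103 to 0.0894 for Lss and -0.0476 to 0.0031 for Ebp in EWS-OCT4 against OCT4, -0.0454 to 0.0204 for Elovl6 in EWS-OCT4 against J1, and -0.12 to 0.0124 for Mvd and -0.0554 to 0.18 for Hsd17b7 in OCT4 against J1. It left 1 to 2 sterol enzymes higher in EWS-OCT4 than in OCT4, 1 without EWS-OCT4 replicate 3, OCT4 replicate 2 or OCT4 replicate 3. Precision was limited by 3 libraries a group and, for Tm7sf2, by low counts.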
